A study of Mus musculus with 12 samples.

Results

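Left ventricles under pressure overload were compared with sham-operated ventricles over both drug arms at once: 6 libraries from mice with transverse aortic constriction (TAC) against 6 from sham mice, which is all 12 of the 12 libraries of the series. All mice were C57BL/6, had surgery when 8 weeks old and gave tissue at 12 weeks, and per the labels every library is 1 mouse of its own. The control arm held 3 Sham+control and 3 TAC+control mice, for which the labels name no drug or vehicle. The pimobendan arm held 3 Sham+pimobendan and 3 TAC+pimobendan mice, given oral pimobendan at 1 mg/kg/day for 4 weeks. In TAC a clip sized against a needle narrowed the aortic arch between its first branches, and sham mice had the operation without the clip. The labels give no pressure gradient, heart weight or function for any mouse, so the degree of overload behind each library is not known here. The comparison asks what pressure overload did to the ventricular transcriptome irrespective of the drug, and the drug arm was kept as a covariate.

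A ventricle that ejects against a narrowed aorta thickens as its muscle cells enlarge. In mice this growth is known for a return of fetal genes (the natriuretic peptides Nppa and Nppb, the slow myosin Myh7 and skeletal actin Acta1), for collagen deposition by fibroblasts, and for changes in ion channels and fuel use. Stretch and growth factors reach the nucleus in part through the MAP kinases, which induce short-lived immediate early genes such as Fos and Egr1 and their own feedback inhibitors of the Dusp and Spry families.

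The unit throughout is FPKM, a fragment count scaled by transcript length and by the fragments mapped in the library, and differences are TAC minus sham on the scale of log2(FPKM + 1), with the standard error (SE) of limma. Of the 11415 genes that reached 1 FPKM in 3 or more libraries, limma called 0 (0% of genes tested) at a Benjamini-Hochberg adjusted p under 0.05. The smallest adjusted p was 0.121. At an unadjusted p under 0.05 there were 1174 genes (10.3%), of which 475 were higher in TAC (4.16%) and 699 lower (6.12%). An exact two-sided permutation test within the arms, over 400 splits, gave 970 genes (8.5%) at an unadjusted p under 0.05. Its smallest possible p of 0.005 was reached by 102 genes. After adjustment the smallest p of this permutation test was 0.52, and 0 genes were called. With so coarse a floor over 11415 genes, the test had little room to call any gene. The typical difference was small: the median absolute log2 difference was 0.09, the median SE was 0.095, and 17 genes differed by at least 1. TAC was above sham in 4910 genes (43%), and the median over all genes was −0.02. By arm, 3979 of the 11415 genes were above sham in the control arm (median −0.06) and 5589 in the pimobendan arm (median −0.006). No gene below is therefore a called change. The genes are described by their values, by whether all 6 TAC libraries lay on 1 side of all 6 sham libraries (35 genes lower, 0.307% of those tested, and 7 higher, 0.0613%), and by the test.

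Libraries of a group correlated across genes at r = 0.986 to 0.994 and libraries of different groups at 0.974 to 0.994. FPKM summed to between 593200 and 643480 per library. The deviation of a library from the mean of all libraries followed the GC content of the genes to differing degrees (Spearman's rho across genes from −0.523 in TAC+pimobendan replicate 3 to 0.529 in Sham+pimobendan replicate 3). The pooled TAC difference of a gene had a rho of −0.50 with its GC content (0.095 for the difference in the control arm and −0.617 in the pimobendan arm). Values with this trend removed from each library are given beside several of the results below.

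The gene with the smallest p was Nfkbia (NCBI Gene 18035, GRCm38 chr12:55489409-55492647), which encodes IκBα, the inhibitor that holds NF-κB in the cytoplasm and is itself an NF-κB target. Sham+control libraries read 47.26, 41.31 and 31.65 FPKM and Sham+pimobendan libraries 48.43, 46.05 and 35.82. TAC+control libraries read 27.04, 21.73 and 26.55 and TAC+pimobendan libraries 26.29, 25.23 and 25.73. All 6 TAC libraries lay below all 6 sham libraries, and the TAC libraries were the tighter set (25.4 ± 1.92 against 41.8 ± 6.79 FPKM, mean ± SD, n = 6 each). The log2 difference was −0.68 (SE 0.10, 95% interval −0.90 to −0.46, limma adjusted p = 0.121), with −0.64 in the control arm and −0.72 in the pimobendan arm. With Sham+control replicate 3 left out, the lowest of the sham libraries, it was −0.75 with an adjusted p of 0.0162. That library lay nearest the TAC libraries, so a wider gap follows from leaving it out.

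The upstream promoter of Nfkbia is shown because its transcription start lies just beyond a match to the κB consensus, and that of Zfp36, the immediate early gene with the smallest p, because it holds a match to the CArG box bound by serum response factor. Both are the 250 bases before the start from RefSeq on GRCm38.p6, minus strand, 5′ to 3′, with the match in capitals: chr12:55492648-55492897 for Nfkbia, with the match at −29 to −20 from the start, and chr7:28379229-28379478 for Zfp36, with the match at −58 to −49.
Nfkbia: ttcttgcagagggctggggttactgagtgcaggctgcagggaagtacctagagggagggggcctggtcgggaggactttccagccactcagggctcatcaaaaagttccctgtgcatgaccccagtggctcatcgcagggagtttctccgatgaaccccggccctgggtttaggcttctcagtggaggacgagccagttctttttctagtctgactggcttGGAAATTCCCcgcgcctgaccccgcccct
Zfp36: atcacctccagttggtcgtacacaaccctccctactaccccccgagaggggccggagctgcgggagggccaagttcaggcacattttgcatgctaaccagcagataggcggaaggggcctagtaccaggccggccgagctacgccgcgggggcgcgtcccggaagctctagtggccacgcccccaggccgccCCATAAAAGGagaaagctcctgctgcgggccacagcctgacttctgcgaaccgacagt
Both motifs were chosen after the values were seen, and both strands of 300 bases were searched, 250 before and 50 after each start. A κB match stood in 1159 of 9129 tested genes with a window (12.7%), in 7 of 21 immediate early genes and in 6 of 20 inflammation genes. It stood in 0 of 12 MAP kinase feedback genes. Among genes with all TAC libraries below all sham libraries it stood in 3 of 30 (10%), which is not above the share of all tested genes. A CArG match stood in 151 of 9129 (1.65%), in 2 of 21 immediate early genes and in 0 of the 30 genes without overlap below sham. Other motifs were searched as well, and Zfp36 held no AP-1 or cAMP element. A match is a run of letters and not a measured site.

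**Figure D1:**
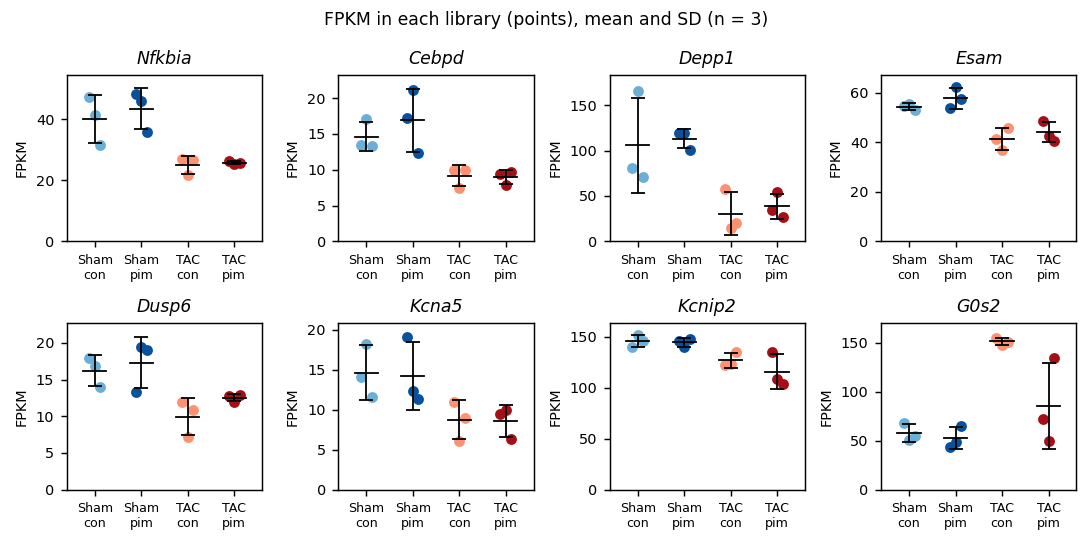
FPKM of 8 genes in every library (y axis, linear from 0), with groups on the x axis (Sham con, Sham pim, TAC con and TAC pim for sham or TAC with control or pimobendan), points for libraries, and a bar with whiskers for mean and SD (n = 3). In Nfkbia, Cebpd, Depp1, Esam, Dusp6, Kcna5 and Kcnip2 all 6 TAC points lie below all 6 sham points, while in G0s2 the TAC+control points sit at 147.63 to 154.78 and the TAC+pimobendan points spread from 50.08 to 134.42.

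Cebpd (Gene 12609, chr16:15887286-15897838) encodes C/EBPδ, a transcription factor of the acute phase and inflammatory response. It ran from 12.29 to 21.07 FPKM in sham libraries (median 15.3) and from 7.46 to 10 in TAC libraries (median 9.52), with no overlap. The log2 difference was −0.72 (SE 0.12, interval −0.98 to −0.46, limma adjusted p = 0.13). Depp1 (Gene 213393, chr6:116650684-116652847), a FoxO target linked to autophagy, had the widest gap of these genes. Its sham libraries ranged from 70.96 to 165.48 FPKM with a median of 110, and its TAC libraries from 14.33 to 57.56 with a median of 31.2. The log2 difference was −1.74 (SE 0.30, interval −2.37 to −1.10, adjusted p = 0.13). Leaving out TAC+control replicate 1, the highest TAC library for Depp1, gave −1.97 with an adjusted p of 0.0306. Here too the library left out lay nearest the other group, so a wider gap follows from the choice.

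Most other inflammation genes pointed the same way, but their groups overlapped. Of 28 inflammation and chemokine genes tested, 5 were above sham and 23 below, the median was −0.20 (−0.02 over all genes), and 4 were lower at an unadjusted p under 0.05, where 6.12% of all genes were. Beside Nfkbia and Cebpd these were Cebpb (−0.75, SE 0.27), the partner of Cebpd, and the chemokine Cxcl14 (−0.32, SE 0.11). The chemokine genes Ccl2 (−0.38, SE 0.26) and Cxcl1 (−0.40, SE 0.48) and the cytokine gene Il1b (−0.11, SE 0.41) had intervals that spanned 0. The mean log2 deviation of the 28 genes from the mean of all libraries overlapped between the groups. It ran from −0.07 to 0.25 in sham libraries and from −0.42 to 0.35 in TAC libraries, highest in TAC+pimobendan replicate 3. With 1 library left out the list median ran from −0.27 to −0.15. Among 16 genes of the glucocorticoid and metallothionein list, which also holds Nfkbia and Depp1, the median was −0.36 (−0.21 without Sham+control replicate 2), and Sgk1, a kinase gene induced by corticosteroids, stood at −0.95 (SE 0.28). Fkbp5 (0.07, SE 0.24), Tsc22d3 (−0.22, SE 0.19) and the metallothionein Mt1 (0.05, SE 0.20), other genes that glucocorticoids induce, had intervals that spanned 0.

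Immediate early genes, the transcription factors and RNA regulators that cells induce within minutes of a stimulus, were mostly lower in TAC. Of 27 tested, 25 were below sham and 2 above, and the median log2 difference was −0.73. At an unadjusted p under 0.05, 8 were lower (6.12% of all genes) and none (0) higher (4.16%). The control arm gave a median of −0.79 and the pimobendan arm −0.47, and with the GC trend removed the pooled median was −0.67. Zfp36, which encodes tristetraprolin, a protein that marks inflammatory mRNAs for decay, ran from 96.71 to 259.99 FPKM in sham (median 170) and from 42.02 to 138.89 in TAC (median 85.4). Its groups overlapped, and its log2 difference was −1.06 (SE 0.29, limma adjusted p = 0.404).

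Egr1, a zinc finger factor of this class, showed how uneven these genes were within a group. Its sham libraries read 271.44, 411.9, 158.7, 253.2, 173.56 and 254.81 FPKM, and its TAC libraries 44.82, 125.81, 200.32, 146.05, 141.4 and 261.68, in the order control then pimobendan. Its log2 difference was −0.83 (SE 0.34, adjusted p = 0.45). Fos ranged from 18.78 to 169.21 FPKM in sham and from 5.16 to 109.75 in TAC, so the groups covered nearly the same span (−0.74, SE 0.68, interval −2.20 to 0.72). Jun (−0.25, SE 0.39) and Atf3 (−0.80, SE 0.92) overlapped in the same way. The list score of a library, the mean log2 deviation of the 27 genes from the mean of all libraries, was 0.97, 1.07 and −0.59 for Sham+control and 0.42, −0.26 and 0.24 for Sham+pimobendan. For TAC+control it was −0.76, −1.03 and 0.85, and for TAC+pimobendan −0.43, −0.69 and 0.22. Sham+control replicate 3, Sham+pimobendan replicate 2, TAC+control replicate 3 and TAC+pimobendan replicate 3 thus stood on the side of the other surgery. Leaving out 1 library at a time moved the list median between −0.90 (without TAC+control replicate 3) and −0.48 (without TAC+control replicate 2).

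Feedback inhibitors of the MAP kinases included 1 gene of 14 that lay below sham without overlap, where 0.307% of all genes tested did. Dusp6 (Gene 67603, chr10:99263231-99267489), the cytoplasmic phosphatase that removes phosphate from ERK, ran from 13.25 to 19.48 FPKM in sham (median 17.4) and from 7.14 to 12.89 in TAC (median 11.9), a log2 difference of −0.54 (SE 0.13, interval −0.81 to −0.27, limma adjusted p = 0.404). Spry4 (−0.93, SE 0.27) and Spry1 (−0.36, SE 0.15), Sprouty inhibitors of receptor signalling to RAS, and the phosphatase gene Dusp1 (−0.77, SE 0.33) were lower at an unadjusted p under 0.05 with overlapping groups. The median of the 14 feedback genes was −0.10, 10 of them were below sham, and the control arm (−0.30) held more of it than the pimobendan arm (−0.02). Without TAC+control replicate 2 the pooled median was −0.04, and without Sham+control replicate 2 it was −0.19. The kinases themselves showed no such lean: of 31 cascade genes 14 were above sham, the median was −0.004, and at an unadjusted p under 0.05 there was 1 gene higher and 1 lower, the latter Map2k7 (−0.15, SE 0.06, and −0.07 with the GC trend removed), a kinase upstream of JNK. Mapk3, the gene of ERK1, had a log2 difference of −0.18 (SE 0.09). These are transcript levels and say nothing of the phosphorylation of the kinases.

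**Figure D2:**
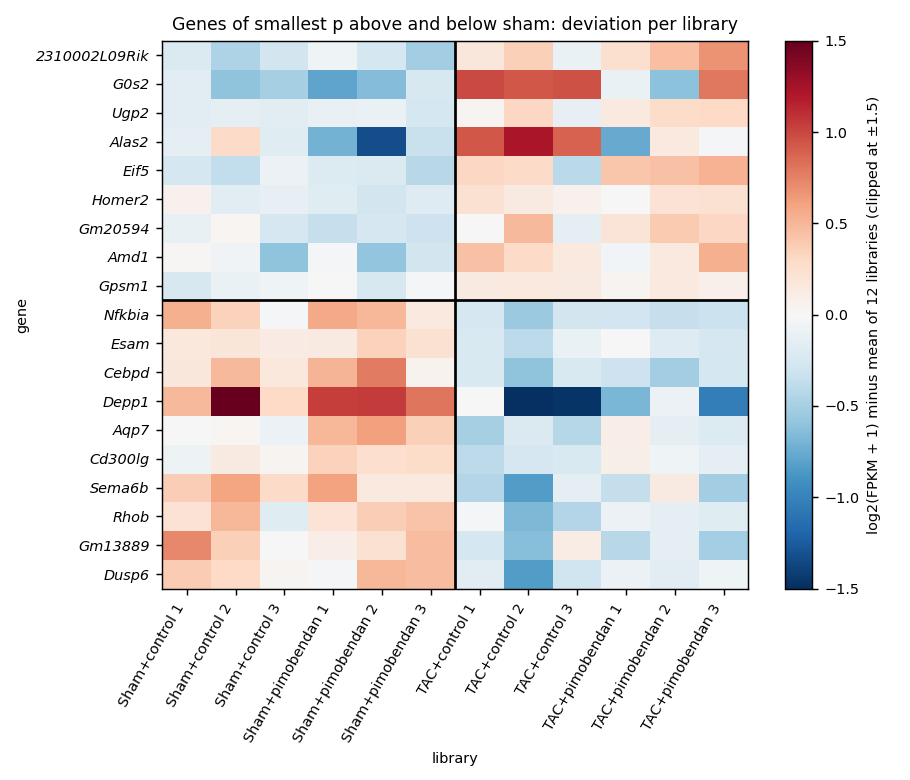
Deviation of log2(FPKM + 1) from the mean of the 12 libraries (colour, clipped at 1.5 either way) for 9 of the 10 genes of smallest p above sham (upper block) and the 10 below (lower block), with 1 column per library and sham to the left of the vertical line. The lower block is blue in most TAC columns of both arms, whereas in the upper block Alas2 and G0s2 are darkest in TAC+control. The genes were picked by this comparison, so the contrast of left and right is a result of the choice.

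Endothelial genes were mostly lower in TAC, several genes of cell junctions among them. Esam (Gene 69524, chr9:37528089-37550687), a tight junction adhesion molecule of endothelium, ran from 52.97 to 62.19 FPKM in sham and from 36.83 to 48.43 in TAC with no overlap, a log2 difference of −0.39 (SE 0.07, interval −0.53 to −0.25, limma adjusted p = 0.13), with −0.39 in each arm. Pecam1, the junction protein CD31, ran from 72.09 to 100.21 FPKM in sham and from 59.4 to 74.05 in TAC (−0.36, SE 0.09, adjusted p = 0.404). Cdh5, the cadherin of endothelial junctions (−0.37, SE 0.10), Tie1 (−0.26, SE 0.07) and Robo4 (−0.24, SE 0.07) were also lower at an unadjusted p under 0.05. Cd300lg, a mucin-like protein of capillary endothelium, ran from 63.59 to 85.43 FPKM in sham and from 51.06 to 71.48 in TAC, without overlap inside either arm (−0.32, SE 0.06, adjusted p = 0.146).

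Other endothelial genes were near 0. The VEGF receptor Flt1 had a log2 difference of 0.12 (SE 0.08), Emcn 0.08 (SE 0.13), Tek −0.02 (SE 0.11) and Fabp4, the fatty acid carrier of capillaries, −0.02 (SE 0.10). Of 16 endothelial markers 14 were below sham, 5 at an unadjusted p under 0.05 (6.12% of all genes), with a median of −0.16 and of −0.17 after removal of the GC trend. The median was −0.08 without Sham+pimobendan replicate 2 and −0.25 without Sham+pimobendan replicate 1. The summed level of the 16 markers ran from 1466.2 to 1849.6 FPKM in sham and from 1245.7 to 1839.7 in TAC, so the sums overlapped. In these bulk libraries fewer cells of a type and less RNA per cell cannot be told apart.

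Mural cells gave a similar picture. Of 14 smooth muscle and pericyte markers 12 were below sham, 6 at an unadjusted p under 0.05 (6.12% of all genes), with a median of −0.13. The median was −0.07 with the GC trend removed, where 5 of the 14 were above sham, and −0.08 without TAC+control replicate 1. The contractile genes Tagln (−0.53, SE 0.16), Cnn1 (−0.46, SE 0.15) and Myh11 (−0.35, SE 0.13), which mark differentiated smooth muscle, and the growth factor receptor Pdgfrb of mural cells (−0.16, SE 0.07) were among the 6, whereas the pericyte genes Rgs5 (0.19, SE 0.14), Abcc9 (0.06, SE 0.08) and Kcnj8 (−0.11, SE 0.07) were not. Acta2, smooth muscle actin, ran from 56.74 to 186.54 FPKM in sham and from 21.07 to 85.17 in TAC (−1.01, SE 0.33), with −0.24 in the control arm and −1.79 in the pimobendan arm (limma interaction, adjusted p = 0.132).

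Matrix genes were mostly lower in TAC. Of 14 collagen genes 13 were below sham, while 43% of all genes were above it. At an unadjusted p under 0.05, 7 were lower (6.12% of all genes) and none (0) higher (4.16%). The median log2 difference was −0.36 (−0.17 in the control arm, −0.58 in the pimobendan arm, −0.31 with the GC trend removed). With 1 library left out that median ran from −0.46 (without Sham+control replicate 2) to −0.26 (without Sham+pimobendan replicate 2). The list scores overlapped, from −0.30 to 0.71 in sham libraries and from −0.50 to 0.08 in TAC libraries. Col3a1, a fibrillar collagen, ran from 20.54 to 73.38 FPKM in sham (median 38.4) and from 15.29 to 37.43 in TAC (median 21.5), a difference of −0.72 (SE 0.26, limma adjusted p = 0.447). Col1a1 stood at −0.43 (SE 0.19), and the basement membrane genes Col4a1 and Col4a2 at −0.53 (SE 0.20) and −0.47 (SE 0.17). Ctgf, a matricellular target of TGF-β and YAP, read 38.19 to 97.12 FPKM in sham and 14.79 to 50.14 in TAC, a difference of −0.95 (SE 0.29, interval −1.58 to −0.32, adjusted p = 0.404).

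Of 20 noncollagen matrix genes 16 were below sham, with a median of −0.22. That median ran from −0.31 (without Sham+control replicate 2) to −0.15 (without TAC+pimobendan replicate 3). Thbs1 (−1.46, SE 0.59), Sparc (−0.47, SE 0.18) and Mmp2 (−0.32, SE 0.11) were lower and Dcn, the proteoglycan decorin, higher (0.30, SE 0.13) at an unadjusted p under 0.05, and 0.16 remained for Dcn with the GC trend removed. Postn, which activated fibroblasts secrete, had a difference of 0.07 (SE 0.21, interval −0.39 to 0.53), and turned to −0.08 with the GC trend removed. The 17 TGF-β ligands, receptors and targets had a median of −0.009 (−0.13 in the control arm, 0.02 in the pimobendan arm). At an unadjusted p under 0.05, 3 of them were lower (6.12% of all genes) and 0 higher, among them Ctgf and Smad3 (−0.24, SE 0.09). Fibroblast markers as a list had a median of −0.003 with 6 of 12 above sham, and their summed level ran from 1132.5 to 1385.6 FPKM in sham and from 1217.8 to 1438 in TAC.

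**Figure D3:**
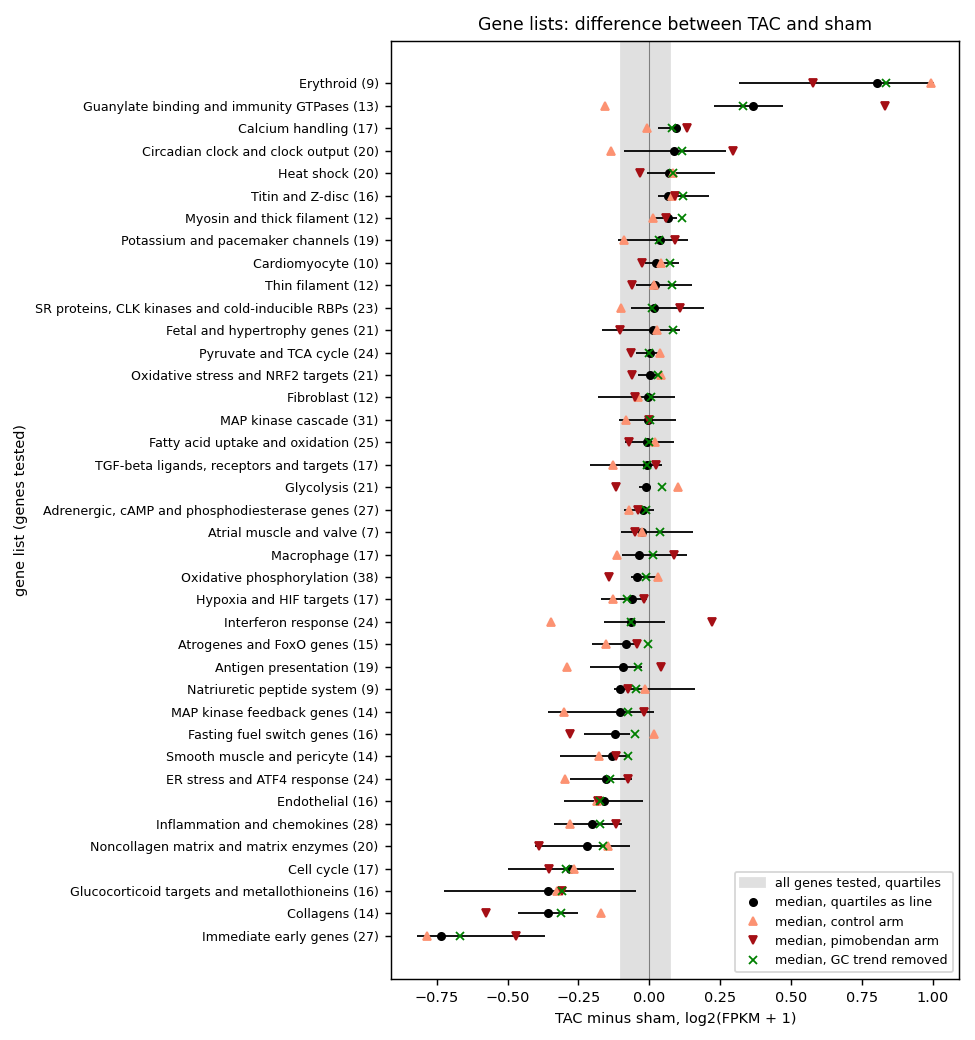
Median TAC minus sham difference of each gene list with at least 5 tested members (x axis, log2(FPKM + 1); number of tested genes in brackets), with a line for the quartiles, triangles for each drug arm, crosses for the median after removal of the GC trend, and a grey band for the quartiles of all 11415 genes. Immediate early genes lie farthest below 0 at −0.73 and erythroid genes farthest above at 0.80, and the arms lie on opposite sides of 0 for the interferon list and the guanylate binding GTPases.

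The fetal programme gave no called difference in either direction. Nppa, atrial natriuretic peptide, ran from 221.56 to 553.82 FPKM in sham (median 258) and from 136.65 to 521.47 in TAC (median 270), a difference of −0.17 (SE 0.25, interval −0.70 to 0.37, and −0.10 with the GC trend removed). Nppb, brain natriuretic peptide, ran from 482.07 to 1116.89 in sham and from 322.07 to 1197.01 in TAC (−0.21, SE 0.27, interval −0.79 to 0.36). The ranges of sham and loaded hearts overlapped over most of their length for both peptides. Myh7, the slow myosin heavy chain, read 28.32, 21.99, 4.51, 120.86, 10.17 and 6.37 FPKM in sham and 7.3, 34.98, 22.03, 80.52, 39.08 and 80.42 in TAC. Its difference of 0.94 (SE 0.65, interval −0.46 to 2.34, limma adjusted p = 0.585) was smaller than the spread among sham hearts, whose highest library was Sham+pimobendan replicate 1. The fast myosin gene Myh6 was narrow in both groups, with a difference of 0.03 (SE 0.05, interval −0.07 to 0.13).

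Acta1, skeletal actin, was high in some loaded hearts of 1 arm. TAC+control libraries read 1608.33, 631.97 and 165.9 FPKM, while the 6 sham libraries ran from 157.44 to 390.49 and the TAC+pimobendan libraries from 130.68 to 251.11. The pooled difference was 0.40 (SE 0.48, interval −0.63 to 1.43), made of 1.32 in the control arm and −0.52 in the pimobendan arm (limma interaction, adjusted p = 0.244). It was −0.04 without TAC+control replicate 1. Ankrd1, a titin-associated stretch protein, had a difference of 0.15 (SE 0.22), Atp2a2, the calcium pump of the sarcoplasmic reticulum, 0.03 (SE 0.05), and Pde3a, the phosphodiesterase that pimobendan inhibits, −0.03 (SE 0.11). Over all 21 fetal and hypertrophy genes 11 were above sham and the median was 0.01 (0.08 with the GC trend removed). Cardiomyocyte markers summed to 83977 to 93288 FPKM in sham and 80148 to 101260 in TAC.

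**Figure D4:**
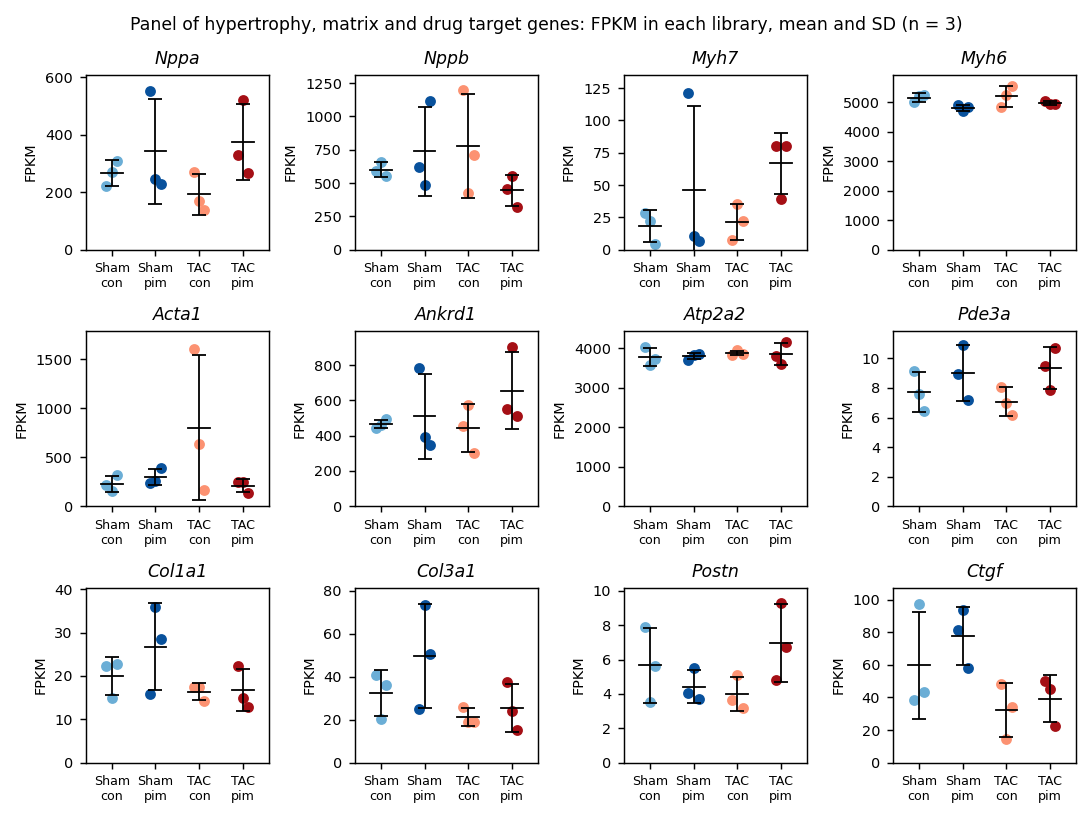
FPKM of 12 panel genes of hypertrophy, matrix and the drug target in every library (y axis, linear from 0), laid out by group as in the plot of the NF-κB, junction and channel genes, with mean and SD (n = 3, whiskers that would pass below 0 are cut off there). Sham and TAC points overlap in every panel, and single libraries stand high in Nppa and Myh7 (Sham+pimobendan replicate 1) and in Acta1 (TAC+control replicate 1).

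Of 19 potassium and pacemaker channel genes tested, 2 lay below sham without overlap, where 0.307% of all genes tested did. Kcna5 (Gene 16493, chr6:126532551-126535555), the Kv1.5 channel of the ultrarapid repolarising current, ran from 11.31 to 19.01 FPKM in sham and from 6.13 to 10.97 in TAC, a difference of −0.67 (SE 0.16, limma adjusted p = 0.404). Kcnip2 (Gene 80906, chr19:45792346-45816432), the KChIP2 subunit of the transient outward current, ran from 139.67 to 151.71 FPKM in sham and from 103.43 to 135.63 in TAC (−0.27, SE 0.07). Within the arms the differences were −0.70 and −0.65 for Kcna5 and −0.20 and −0.33 for Kcnip2, in control then pimobendan. Groups that do not overlap over all libraries cannot overlap inside an arm, so the shared direction follows from the choice of these genes. The pore gene Kcnd2 of the same outward current stood at 0.10 (SE 0.09) and Kcnd3 at 0.06 (SE 0.16), and the list of 19 channel genes had a median of 0.04 with 11 above sham.

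Calcium handling and Z-disc genes leaned slightly upward. Of 17 calcium handling genes 16 were above sham with a median of 0.09. In the control arm 8 were above sham with a median of −0.01, and in the pimobendan arm 14 with a median of 0.13. Over all 11415 genes the control arm had 3979 above sham (median −0.06) and the pimobendan arm 5589 (median −0.006). In the pooled comparison 2 were higher at an unadjusted p under 0.05 (4.16% of all genes), Pln (0.26, SE 0.10), the brake on the calcium pump, and Trdn (0.61, SE 0.28), the anchor of the release channel. Pln had −0.01 in the control arm and 0.52 in the pimobendan arm, and Trdn −0.16 and 1.38 (limma interaction, adjusted p = 0.0911 and 0.0854). With the GC trend removed the pooled differences were 0.14 for Pln and 0.40 for Trdn, and Trdn no longer had an unadjusted p under 0.05. Of 16 titin and Z-disc genes 14 were above sham with a median of 0.07 (0.12 with the GC trend removed), led by Myot (0.45, SE 0.16), Pdlim5 (0.21, SE 0.09) and Nexn (0.62, SE 0.26), which encode Z-disc scaffold proteins. With 1 library left out at a time the medians ran from 0.05 to 0.10 for both lists, lowest without Sham+control replicate 2 for the calcium list and highest without TAC+control replicate 1 for the Z-disc list.

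Trim63, the muscle ubiquitin ligase MuRF1 that tags sarcomere proteins for breakdown, ran from 118.4 to 195.45 FPKM in sham and from 67.62 to 113.05 in TAC with no overlap (−0.55, SE 0.15). The other muscle ligase of atrophy, Fbxo32, had −0.57 (SE 0.29) with overlap. Cited2, a coregulator of FoxO and hypoxia signalling, had −0.52 (SE 0.15), while Foxo1 (−0.06, SE 0.07) and Foxo3 (−0.08, SE 0.13) were near 0. Over 15 atrophy and FoxO genes the median was −0.08, and −0.004 with the GC trend removed.

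Among genes above sham, G0s2 (Gene 14373, chr1:193272160-193273842), an inhibitor of the lipase ATGL, had the largest difference of the 10 with smallest p. Sham libraries ran from 43.98 to 68.28 FPKM. TAC+control libraries read 154.78, 147.63 and 150.93, and TAC+pimobendan libraries 71.94, 50.08 and 134.42. The difference was 0.99 (SE 0.21, interval 0.53 to 1.44, limma adjusted p = 0.363), with 1.38 in the control arm and 0.59 in the pimobendan arm (limma interaction, adjusted p = 0.26). Ugp2, which makes the UDP-glucose used for glycogen, had 0.31 (SE 0.07), of which 0.10 remained with the GC trend removed. Gbe1, the glycogen branching enzyme, was among the 7 genes with all TAC libraries above all sham libraries (0.19, SE 0.07, and 0.06 with the GC trend removed), as was Gpsm1, a regulator of G proteins (0.23, SE 0.06, with sham at 56.23 to 66.58 FPKM and TAC at 68.54 to 74.25). Eif5, which releases the initiation factors when the ribosome finds a start codon, had 0.52 (SE 0.13), with TAC+control replicate 3 at 17.73 FPKM inside the sham range and the other 5 TAC libraries at 29.36 to 34.71 above it. Without that library its difference was 0.65 with a limma adjusted p of 0.0147, and a wider gap follows from leaving out the lowest TAC library. The gene of smallest p above sham, 2310002L09Rik, had 0.60 (SE 0.11, adjusted p = 0.146). Aqp7, the glycerol channel, was lower in TAC without overlap inside either arm (−0.47, SE 0.08, adjusted p = 0.146). The enzyme lists had pooled medians near 0: −0.009 for 25 fatty acid genes, −0.01 for 21 glycolysis genes, 0.003 for 24 pyruvate and TCA cycle genes and −0.05 for 38 oxidative phosphorylation genes. The arms lay on opposite sides for glycolysis (median 0.10 with 17 of 21 above sham in control, −0.12 with 3 of 21 in pimobendan) and for oxidative phosphorylation (0.03 with 26 of 38, −0.14 with 8 of 38), and the difference between the arms was not tested for a list. Over all genes tested the medians were −0.06 in control and −0.006 in pimobendan. Of 16 fasting fuel switch genes, which PPAR factors induce, 15 were below sham with a pooled median of −0.12, from 0.02 in the control arm and −0.28 in the pimobendan arm. That median was −0.05 with the GC trend removed, −0.05 without TAC+pimobendan replicate 2 and −0.25 without Sham+control replicate 3.

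Red cell transcripts were higher in TAC. Of 9 erythroid genes tested 8 were above sham, 7 of them at an unadjusted p under 0.05 (4.16% of all genes were), with a median of 0.80 that ran from 0.71 to 0.95 when 1 library was left out. Hba-a1, an α-globin, read 521.04, 1094.04, 715.87, 381.09, 163.49 and 657.82 FPKM in sham and 1493.01, 2370.12, 1551.49, 396.14, 762.95 and 661.75 in TAC. The 3 TAC+control libraries were the highest of all, and the TAC+pimobendan libraries lay within the range of sham (1.00, SE 0.30, limma adjusted p = 0.404). Alas2, the red cell enzyme that starts heme synthesis, had 0.80 (SE 0.19), and Bpgm, the red cell mutase, 0.32 (SE 0.09). Globin paralogs are near-identical, so the division of fragments between Hba-a1 and Hba-a2 is uncertain. Summed erythroid markers ran from 563.79 to 3166.4 FPKM in sham and from 1246.8 to 6798.1 in TAC, and the part of blood left in the tissue in this difference was not tested.

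A few libraries carried the difference of a heat shock gene pair and of a further gene list. The heat shock gene Hspa1b stood at 49.4 and 52.3 FPKM in TAC+control replicates 2 and 3 and between 1.58 and 3.99 in the other 10 libraries (1.44, SE 0.61, limma interaction adjusted p = 0.18), and its near-identical neighbour Hspa1a followed it at 32.24 and 75.67. The heat shock list did not rest on these libraries. Of its 20 genes 14 were above sham, 3 of them at an unadjusted p under 0.05 (4.16% of all genes were). Its median of 0.07 was 0.07 without TAC+control replicate 2 and 0.08 without TAC+control replicate 3. It was lowest at 0.02 without Sham+control replicate 3. All 13 interferon-inducible guanylate binding and immunity GTPase genes, which act against intracellular pathogens, were above sham with a median of 0.37, but only Gbp4 (0.64, SE 0.25) had an unadjusted p under 0.05. The control arm gave a median of −0.16 and the pimobendan arm 0.83. Without TAC+pimobendan replicate 3, whose list score of 1.66 stood above −0.37 to 0.27 in the other 11 libraries, the pooled median was 0.14. The wider interferon list had opposite medians in the arms, −0.35 in control and 0.22 in pimobendan, and −0.07 when pooled.

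**Figure D5:**
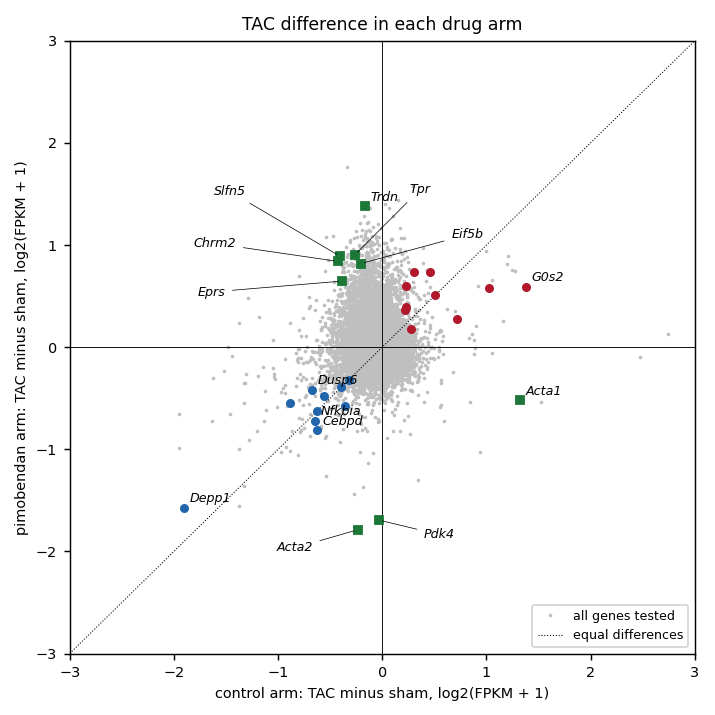
TAC minus sham difference of every gene in the control arm (x axis) and in the pimobendan arm (y axis), both log2(FPKM + 1), with the 10 genes of smallest pooled p below sham in blue, the 10 above in red, and genes named for a difference between the arms as green squares. The grey cloud of 11415 genes shows no slope (r = 0.024), and blue points such as Nfkbia, Cebpd and Depp1 lie near the dotted line of equal differences. The blue and red genes were picked by the pooled difference, which is the mean of both arms. Their nearness to that line is therefore in part a result of the choice.

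The arms share no library, so the TAC difference of one could be set beside that of the other. Across all 11415 genes the TAC differences of the arms had a Pearson r of 0.024 and a Spearman rho of −0.08, and r was 0.074 with the GC trend removed. Genes are not independent replicates, and the GC trends of the libraries enter both axes. With the spread shared over all 12 libraries limma called 0 genes (0%) in the control arm, with 951 at an unadjusted p under 0.05 (8.33%), and 558 (4.89%) in the pimobendan arm, 530 higher (4.64%) and 28 lower (0.245%). In the pimobendan arm 0 genes were called once the GC trend was removed from the libraries, or without any 1 of 4 libraries (Sham+pimobendan replicates 2 and 3, TAC+pimobendan replicates 2 and 3). The difference between the arms itself was called for 0 genes (0%), with 2312 (20.3%) at an unadjusted p under 0.05, and the pooled comparison had 1174. The 5 genes of smallest interaction p were Eprs, Slfn5, Tpr, Eif5b and Chrm2, all with a limma adjusted p of 0.0853, below sham in the control arm and above it in the pimobendan arm. Chrm2, the cardiac muscarinic receptor, had −0.42 and 0.84, and a pooled difference of 0.21 (SE 0.21). Genes whose TAC and sham libraries separated within each arm in the same direction numbered 81 lower (0.71%) and 21 higher (0.184%). Such separation is what gives the smallest permutation p of 0.005, reached by 102 genes. The counts are therefore no further result.

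Markers of other cell types bore on the tissue's identity. Of the thymus and lung markers 2 of 9 had a value in the table and summed to at most 0.07 FPKM in every library. None (0) of the 9 T and NK cell, 5 B cell and 2 thymus and lung markers with a value passed the filter. Macrophage markers had a median of −0.04 with 8 of 17 above sham, and sums of 243.69 to 355.72 FPKM in sham and 238.42 to 357.94 in TAC. Atrial markers summed to 262.66 to 602.62 FPKM in sham and 182.84 to 569.03 in TAC, of which Nppa made most, and the atrial light chain Myl7 was at most 0.53 in sham and 2.16 in TAC. The ventricular light chain Myl2 ran from 18779.71 to 22712.67 FPKM in sham and from 19832.08 to 23533.08 in TAC.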

How the data were processed

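Polyadenylated RNA of 12 left ventricles was sequenced on a DNA nanoball platform, per the labels' protocols. The authors deposited 1 table of FPKM and TPM per gene and library (17052 genes) and the analysis used FPKM, with the deposited TPM as an alternative. The tools listed, per the submitters' processing notes and with no role or order, are RSEM 1.2.12, HISAT2 2.0.4, DESeq2 1.4.5 and Bowtie2 2.2.5, and GRCm38 is the build. The table holds no counts, so a planned count model gave way to limma, absolute depth is unknown and no counting interval or floor is given. The smallest steps between low values of single-transcript genes put 1 fragment at 0.9 to 1.28 times its worth in Sham+control replicate 1. Between 1916 and 2328 genes per library are listed at 0, which can be a failed estimate.

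Here the values entered limma 3.58.1 (R 4.3.3, trended prior variance) as log2(FPKM + 1) for genes that reached 1 FPKM in 3 or more libraries. Benjamini-Hochberg adjustment ran over all of these genes, with calls at an adjusted p under 0.05. The pooled model had terms for surgery and drug arm with 9 residual degrees of freedom, and the arms and their difference came from a fit with 1 mean per group. The code was tested on simulated data. Genes named were 12 panel genes, the 10 of smallest p in each direction with a mean of at least 5 FPKM (none was called), 2 of each list by smallest p and 5 by the difference between the arms; other list members are quoted beside their list's counts, picked with their values known. A few genes that these rules select are not reported here. The comparison, the members and the lists were chosen with earlier results of these data known. Gene coordinates came from RefSeq by Gene ID (16941 of 17052 genes matched), promoters from RefSeq on GRCm38.p6, and GC content from GENCODE transcripts (11334 of 11415 genes tested). Plin2 has 2 entries in the table, and 1 was left out of the lists. Alternatives were another pseudocount (0.1), other filters on low values, median-ratio and quantile scaling, TPM, removal of each library's GC trend (loess, span 0.3), a replicate block, sample weights, a fold threshold, no drug term and leaving out each library in turn.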

Additional observations from a re-analysis of the deposited data

Results flagged for a closer look

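Of 214 sets of 6 sham or 6 TAC libraries examined for the named genes, 12 held 1 library whose gap to its nearest neighbour on log2(FPKM + 1) was, as a share of the set's whole range, above Dixon's 95% critical value for 6 values. Chance flags about 1 in 20 such sets. In TAC+control replicate 2, Nfkbia stood low at 21.73 FPKM, with the other TAC libraries at 25.23 to 27.04, and Dusp6 at 7.14, with the others at 10.86 to 12.89. In TAC+control replicate 3, the translation factor gene Eif5 stood at 17.73 FPKM against 29.36 to 34.71 in the other 5 TAC libraries. In TAC+control replicate 1, the clock gene Cry1 stood at 13.18 against 3.97 to 6.07.

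In TAC+pimobendan replicate 3, the interferon-inducible GTPase genes Gbp4 and Tgtp2 stood at 15.12 (others 2.79 to 5.15) and 19.91 FPKM (others 4.37 to 6.31). Among sham libraries, Sham+control replicate 2 had Trim63 at 195.45 FPKM (others 118.4 to 139.72). Sham+control replicate 3 had the tropomyosin gene Tpm2 at 15.75 (others 9.58 to 11.47) and Pde3b at 0.69 (others 0.91 to 1.05). Sham+control replicate 1 had the respiratory chain gene Uqcrb at 1375.48 (others 1065.57 to 1138.02). Sham+pimobendan replicate 2 had the neutrophil gene S100a9 at 1.75 (others 0.2 to 0.62), and Sham+pimobendan replicate 1 had Nppa at 553.82 (others 221.56 to 310.41). No gene passed the test of a difference between the arms (0 called).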

How the results depend on the processing

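The pooled comparison kept 0 calls in each direction under another pseudocount, no filter, a mean filter, median-ratio and quantile scaling, TPM, GC trend removed, sample weights, a fold threshold, no drug term, the mean of both arms, and the replicate block (0, also with the GC trend removed). Same-numbered libraries had correlations of deviations from −0.44 to 0.253, and 0 libraries correlated best with their own number in every other group. No pairing by number was seen on this strict measure. Whether libraries of the same number were handled together was not tested. Leaving out 1 library gave 0 to 1 genes higher (Eif5, 0.65, adjusted p = 0.0147, without TAC+control replicate 3) and 0 to 1 lower (Nfkbia or Depp1, above). For each of these genes the library left out was the nearest of its group to the other surgery. The smallest limma adjusted p of the pooled comparison ran from 0.0147 to 0.384 (without Sham+control replicate 2). In the control arm it gave 0 to 4 calls. The pimobendan arm had 558 calls, but 0 with no filter, with the GC trend removed, with the replicate block or with both, 298 with quantile scaling, 1350 with sample weights, 51 with a log2 change of at least 1, and 0 to 1225 with 1 library out. The difference between the arms had 500 calls with sample weights and 0 to 773 with 1 library out. Atp2a2 turned to −0.0358 with quantile scaling and −0.0080 with the GC trend removed, with or without the block, and Postn to −0.0761 in both of the latter. With 1 library out Acta1 ran from −0.0434 to 0.683, Postn from −0.071 to 0.226, Pde3a from −0.099 to 0.0309 and Cfd from −0.148 to 0.191. The cause was not tested. The median 95% interval of a gene reached 0.205 either side.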

Other observations

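Some gene groups outside the main account leaned one way without a called gene in limma. Of 17 cell cycle genes tested 15 were below sham, 5 of them at an unadjusted p under 0.05 (6.12% of all genes), with a median of −0.28 that ran from −0.45 (without Sham+pimobendan replicate 1) to −0.21 when 1 library was left out. The replication licensing genes Mcm3 and Mcm7 had log2 differences of −0.48 (SE 0.14) and −0.44 (SE 0.13), at levels of 1.92 to 5.13 and 3.05 to 7.34 FPKM over all libraries. Of 24 genes of the ER stress and ATF4 response 19 were below sham with a median of −0.15 (−0.30 in the control arm, −0.08 in the pimobendan arm, and −0.07 pooled without Sham+control replicate 1). Chac1, an ATF4 target that degrades glutathione, had −0.94 (SE 0.29) and Creld2, a chaperone-like protein of the ER, −0.32 (SE 0.12).

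Among 20 clock genes 14 were above sham with a median of 0.09, which ran from 0.04 (without Sham+pimobendan replicate 3) to 0.18 (without TAC+control replicate 1), but the medians of the arms were −0.14 in control and 0.29 in pimobendan. The clock repressor Cry1 had 0.53 (SE 0.16), with TAC+control replicate 1 at 13.18 FPKM and the other TAC libraries at 3.97 to 6.07, and Bhlhe41 had 0.28 (SE 0.13). Of 23 SR protein, CLK kinase and cold-inducible genes 13 were above sham, 4 at an unadjusted p under 0.05 (4.16% of all genes). The list had medians of −0.10 in the control arm and 0.11 in the pimobendan arm. The splicing factors Srsf1 and Srsf10 had 0.34 (SE 0.12) and 0.30 (SE 0.11), of which 0.32 and 0.15 remained with the GC trend removed. In control then pimobendan, Srsf1 had 0.09 and 0.58, and Srsf10 had 0.07 and 0.54 (limma interaction, adjusted p = 0.179 and 0.178).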
